A study of Mus musculus with 6 samples.

Results

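The 83 genes described here encode protein parts of the cytosolic ribosome or paralogs of them. These genes were examined in MIN6 cells made to express parathyroid hormone-related protein (PTHrP). They were taken by name from the 55487 genes of the count table: protein-coding genes whose symbol starts with Rpl or Rps and a number, with at most a short suffix, together with Rpsa, Rplp0, Rplp1 and Rplp2, and without the S6 kinases. By name, 51 belong to the large subunit and 32 to the small subunit. MIN6 is a mouse insulinoma line that stands in for beta cells of the pancreas. There were 3 RNA-seq libraries of cells transiently transfected with full-length PTHrP and 3 of cells given the DsRed vector, which codes for a red fluorescent protein. Both groups were transfected with Lipofectamine 2000, were of the same line and medium, and gave RNA at most 3 days later. The sources used here give neither the promoter of the constructs nor the share of cells that took them up, and no untransfected library was analysed here.

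A cytosolic ribosome is built from ribosomal RNA and one copy of most ribosomal proteins, so the cell needs these proteins in matched amounts. Their mRNAs are short, abundant and commonly start with a run of pyrimidines, the 5′ terminal oligopyrimidine (TOP) motif, through which mTORC1 signalling controls their translation without a matching change in mRNA. Pancreatic beta cells depend on high protein synthesis to make insulin. Ribosomal proteins that are not built into ribosomes can bind MDM2 and stabilise p53.

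Gene counts per library ran between 84427033 and 94613684, and 21141 genes were covered well enough for a test. Pthlh, the gene of PTHrP, was counted 697, 553 and 797 times with PTHrP, against 0, 4 and 8 times with DsRed (log2 fold change 7.36, edgeR quasi-likelihood test with Benjamini-Hochberg adjustment, adjusted p = 4.09e-05). Of the beta cell markers, Ins2 had the most counts, 2862889 to 3386254 in PTHrP and 2878110 to 3904842 in DsRed. Ucn3 had the fewest, 970 to 1136 in PTHrP and 983 to 1085 in DsRed. Sst, Ppy, Ghrl, Prss2 and Cpa1 of other pancreatic cells had at most 15 counts in any library. Of the other markers of cells beside beta cells, Krt19 (ductal) had 3 to 22 counts in PTHrP and 8 to 17 in DsRed, and Col1a1 (stromal) 12 to 77 in PTHrP and 20 to 52 in DsRed. Pecam1 (endothelial) had 43 to 118 counts in PTHrP and 65 to 213 in DsRed, and Ptprc (immune) 18 to 55 in PTHrP and 68 to 91 in DsRed. The groups of Ptprc did not overlap (log2 fold change -1.04, edgeR adjusted p = 0.470), and its part in the results was not tested. The alpha cell gene Gcg was far higher than these markers of other cells, with 11483 to 16685 counts in PTHrP and 12728 to 13395 counts in DsRed. It also lay above the beta cell marker Nkx6-1, with 9091 to 10517 counts in PTHrP and 9939 to 10518 in DsRed. PTHrP replicate 2 stood apart from the other libraries: the chi-square per gene was 55.5 to 68.6 for each pair that held it and 9.08 to 36.8 for the other pairs. Nothing in the labels says that replicates came from separate cultures, so the spread behind each p-value is that between libraries and may be technical.

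No ribosomal protein gene passed the test of PTHrP against DsRed. Of the 83 genes 80 were tested and 0 passed (edgeR quasi-likelihood test, smallest Benjamini-Hochberg adjusted p = 0.417), while 9 of all 21141 genes passed, 0.0426% (0.0189% higher and 0.0237% lower in PTHrP). At an unadjusted p under 0.05 there were 4 ribosomal protein genes, all higher in PTHrP, 5% of the 80, where 8.9% of all genes reached it, 4.92% higher and 3.98% lower. Fold changes were small and mostly positive: 69 of the 80 were above 0, with a median log2 fold change of 0.08, whereas 48.7% of all genes were above 0 and their median was -0.01. The 48 large-subunit genes had a median of 0.09 with 43 above 0, and the 32 small-subunit genes a median of 0.08 with 26 above 0. The approximate 95% interval of the log2 fold change lay within 0.5 of 0 for 74 of the 80 genes and within 1 for 79. In these bulk libraries, fewer cells and less RNA per cell cannot be told apart.

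The small positive median rested on PTHrP replicate 2. Ribosomal protein genes together took 0.574%, 0.742% and 0.620% of the counts of the PTHrP libraries, against 0.588%, 0.581% and 0.642% of the DsRed libraries. The share was thus highest in PTHrP replicate 2, and the other 5 libraries overlapped between the groups. Per gene, the log2 level relative to its mean over the 6 libraries had a median of -0.13, 0.27 and -0.01 in the PTHrP libraries and of -0.11, -0.11 and 0.12 in the DsRed libraries. PTHrP replicate 2 was the highest library for 69 of the 80 genes (86.3%, where it was highest for 23.4% of all genes tested) and lay above the mean for 78. DsRed replicate 3 was highest for 8 genes and above the mean for 58, while PTHrP replicate 1, DsRed replicate 1 and DsRed replicate 2 were above the mean for only 4, 11 and 4 genes.

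**Figure D1:**
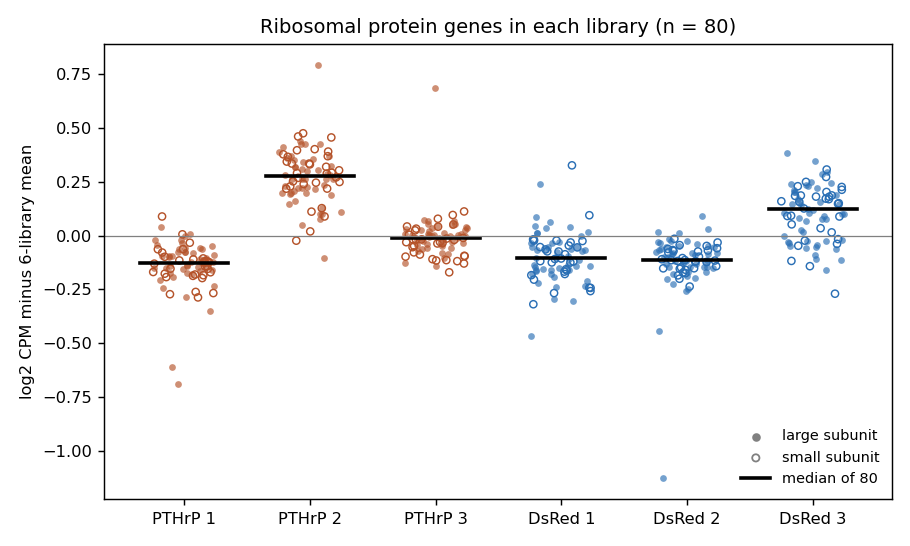
Log2 CPM of each of the 80 tested ribosomal protein genes minus its mean over the 6 libraries (vertical axis), with 1 point per gene and library, filled for the large and open for the small subunit, and a bar at the median of each library. PTHrP replicate 2 lies highest with a median of 0.27, DsRed replicate 3 next with 0.12, and PTHrP replicates 1 and 3 have medians of -0.13 and -0.01.

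Without PTHrP replicate 2 the direction of the median turned. Again 0 of the 80 genes passed, while 213 of 22316 genes (0.954%) did. The median log2 fold change of the ribosomal protein genes was then -0.04, with 26 genes above 0 and 54 below, and the fold change of 78 genes was lower than with all 6 libraries. It turned sign in 45. The median was -0.02 for the large and -0.07 for the small subunit. At an unadjusted p under 0.05 1 gene was higher and 2 genes, Rps7 and Rps24, were lower, 3 of 80 genes where 6.77% of all genes were higher and 6.21% lower. Leaving out any other single library kept the median above 0, at 0.17 and 0.12 when PTHrP replicate 1 or 3 was the one left out, and at 0.04, 0.04 and 0.17 for DsRed replicate 1, 2 or 3. None of the 80 genes passed in these fits.

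**Figure D2:**
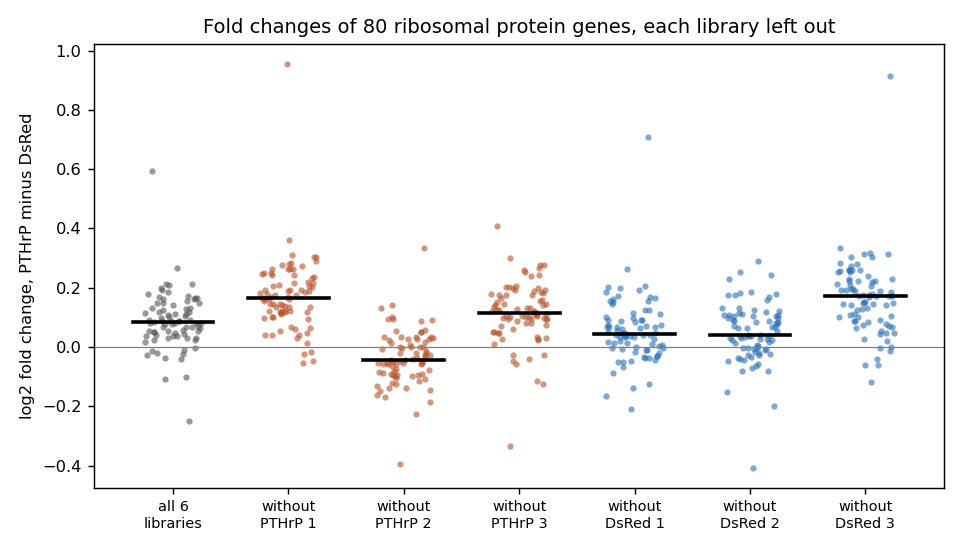
Log2 fold change (PTHrP minus DsRed, vertical axis) of the 80 ribosomal protein genes with all 6 libraries and with each library left out, 1 point per gene and a bar at the median. The median is 0.08 with all libraries, -0.04 without PTHrP replicate 2 and between 0.04 and 0.17 in the other 5 fits.

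Short genes of other kinds also stood high in PTHrP replicate 2. The other protein-coding genes were divided into 6 bins of merged exon length, and their median log2 deviation in that library was 0.10 in the shortest bin (up to 1790 bases), 0.06, 0.02, -0.01 and -0.06 in the next 4, and -0.12 in the longest (over 9944 bases). In DsRed replicate 3 the medians were 0.03, -0.02, -0.03, -0.02, 0.01 and 0.06 in the same order of bins. The merged exons of the ribosomal protein genes had a median length of 1770 bases, and the 0.27 of these genes in PTHrP replicate 2 lay above the 0.10 of the shortest bin. Among the 80 genes themselves the deviation in PTHrP replicate 2 had a Spearman's rho of -0.18 with the length of the principal transcript. In PTHrP replicates 1 and 3 it was 0.32 and -0.23, and in DsRed replicates 1, 2 and 3 it was 0.44, 0.44 and -0.45. By merged exon length, the measure of the bins, rho was only -0.05 in PTHrP replicate 2. By that length it was 0.01 and -0.05 in PTHrP replicates 1 and 3, and 0.31, 0.21 and -0.29 in DsRed replicates 1, 2 and 3. These are descriptions across the 80 genes of a library, which are not independent. With a length trend removed in each library, the median fold change of the ribosomal protein genes was 0.04, with 57 of 80 above 0. PTHrP replicate 2 also had the fewest counts of the beta cell factor Mafa, 68364 against 121150 and 125601 in the other PTHrP libraries and 120013 to 132628 in DsRed. The 11 beta cell markers examined did not share this fall as a set. PTHrP replicate 2 was the highest library for 3 of them and the lowest for 4, with a median deviation of 0.03. The part of gene length or of the cells' state in the high values of PTHrP replicate 2 was not tested beyond this.

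**Figure D3:**
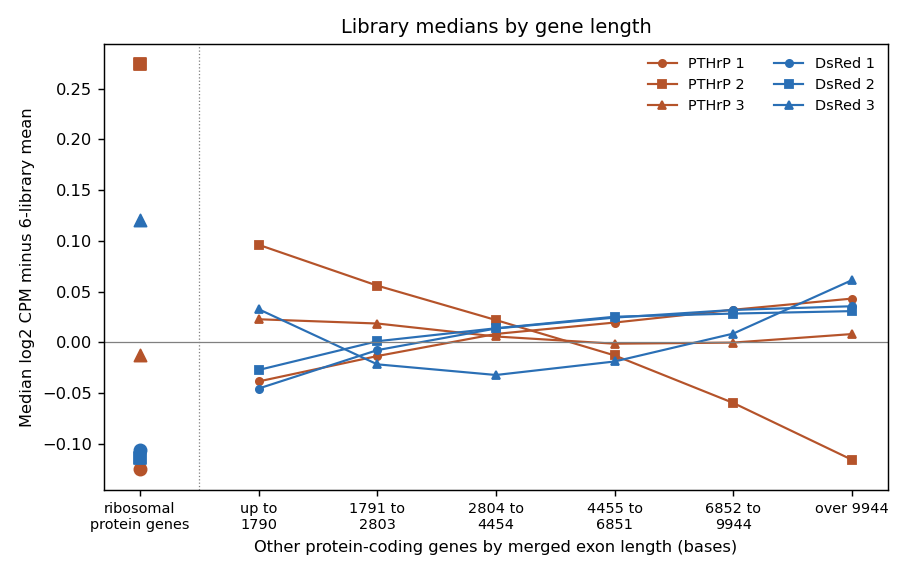
Median log2 CPM minus the 6-library mean (vertical axis) in each library, for the ribosomal protein genes (left) and for the other protein-coding genes in 6 bins of merged exon length (right). The line of PTHrP replicate 2 falls with length, with 0.10 in the shortest and -0.12 in the longest bin, and its ribosomal protein value is 0.27.

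The TOP motif is shown because it is what the mRNAs of these proteins are known to share and what the naming rule did not use. In the RefSeq promoter table (build GRCm38.p6) 63 of the 83 genes had an entry, and 13 of them, 20.6%, had a C at the annotated start followed by at least 4 pyrimidines, read on the transcribed strand. The same was true of 3.01% of all 27025 genes in the table. A C followed by 7 or more pyrimidines stood anywhere between 20 bases before and 50 bases after the start in 48 of the 63 (76.2%), against 22.7% of all genes. The annotated starts were not checked against reads here, and a match is a description of letters. Each window below holds the 20 bases before the start and the 10 bases from the start on, and the capitals mark the pyrimidine run from the start. Rpl22l1 and Rpl7l1, paralogs of ribosomal proteins, have no such start. The same holds for most of the 63 genes, among them Rps2, Rps3, Rpl5, Rpl11 and Rplp0, whose windows are not printed.
Rps6, chr4:86857358-86857387, minus strand: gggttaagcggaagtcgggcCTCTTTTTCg
Rps18, chr17:33955656-33955685, minus strand: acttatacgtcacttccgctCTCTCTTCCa
Rps27, chr3:90213639-90213668, minus strand: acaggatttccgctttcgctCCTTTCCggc
Rpl28, chr7:4792945-4792974, plus strand: tcgtcccgcctctcgtgtctCTCTTTCCgt
Rpl38, chr11:114668560-114668589, plus strand: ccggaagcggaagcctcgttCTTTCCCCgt
Rplp2, chr7:141447631-141447660, plus strand: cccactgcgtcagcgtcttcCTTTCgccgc
Rpl22l1, chr3:28805488-28805517, plus strand: cgtgcgtgcggcgcaagcccgttctcttcc
Rpl7l1, chr17:46782647-46782676, minus strand: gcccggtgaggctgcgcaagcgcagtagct
The 13 genes with such a start had a median log2 fold change of 0.05 and the 47 tested genes with another annotated start one of 0.08. Without PTHrP replicate 2 these medians were -0.05 and -0.03. In PTHrP replicate 2 itself the median deviation was 0.27 for the first and 0.26 for the second.

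Among the small-subunit proteins, Rps2, at the entry of the mRNA channel, had 168, 210.4 and 164 CPM in the PTHrP libraries, against 154, 160 and 154 CPM in the DsRed libraries (CPM is the TMM-scaled share of a library's counts). All 3 PTHrP libraries lay above all 3 DsRed libraries, which held for 2 of the 80 genes. Groups separated this way, with PTHrP higher, for 8.45% of all genes tested, and with PTHrP lower for 7.88% of all genes and for 0 ribosomal protein genes. The log2 fold change of Rps2 was 0.21 (SE 0.09, edgeR adjusted p = 0.505), and 0.09 without PTHrP replicate 2. Rps3, which forms part of the same entry and also acts in DNA repair, had 213, 263 and 235 CPM in PTHrP and 209.5, 205 and 215 CPM in DsRed. Its log2 fold change was 0.17 (SE 0.07, edgeR adjusted p = 0.517). Rps2 is on chromosome 17 at 24718116 to 24721929 and Rps3 on chromosome 7 at 99477896 to 99483738 (GRCm38).

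Other small-subunit genes with roles of their own differed in which library was highest. Rps6, the substrate of the S6 kinases downstream of mTORC1, had 94.3, 109.8 and 102 CPM in PTHrP and 110.2, 102 and 102 CPM in DsRed, and its log2 fold change was -0.04 (SE 0.07). Its groups overlapped, with DsRed replicate 1 highest. Rpsa, also known as the laminin receptor, had 152, 228 and 155 CPM in PTHrP against 164, 158 and 151 CPM in DsRed. Here PTHrP replicate 2 alone was high, and the log2 fold change of 0.18 (SE 0.15) became -0.03 without it. Rps25, which is dispensable for most translation but needed by some viral internal ribosome entry sites, had 49.4, 55.3 and 53.8 CPM in PTHrP and 53.7, 52.2 and 63.9 CPM in DsRed, with DsRed replicate 3 highest. Its log2 fold change of -0.10 (SE 0.09, edgeR adjusted p = 0.791) had the smallest p among the genes below 0. Rps7, one of the proteins that bind MDM2, and Rps19, the gene most often mutated in Diamond-Blackfan anaemia, had log2 fold changes of -0.04 and -0.03. Rps27a, which is made as a fusion with ubiquitin, had 0.04.

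Among the large-subunit proteins, Rpl22 had the smallest p. Rpl22, an RNA-binding protein that cells can do without, had 22.3, 30.5 and 24.5 CPM in PTHrP and 18.9, 21.98 and 23.3 CPM in DsRed, so that PTHrP replicate 1 lay below DsRed replicate 3. The log2 fold change was 0.27 (SE 0.12, edgeR adjusted p = 0.561), and 0.13 without PTHrP replicate 2. Rpl36 and Rpl7a followed by p, with log2 fold changes of 0.21 (SE 0.11) and 0.16 (SE 0.10). Rpl5 and Rpl11, which with the 5S ribosomal RNA bind MDM2, had log2 fold changes of 0.03 (SE 0.06) and 0.12 (SE 0.10). Rpl5 varied little, with 91.8, 99.1 and 94.2 CPM in PTHrP and 94.9, 92.3 and 92.0 CPM in DsRed. Rpl3, at the peptidyl transferase centre, had a log2 fold change of 0.16, and Rpl10, which joins late at that centre, 0.08. Rpl38, needed in mice for the translation of Hox mRNAs, had -0.01 and Rpl13a, which in humans also takes part in an interferon-induced repressor complex, 0.12. The stalk genes Rplp0, Rplp1 and Rplp2, whose proteins recruit elongation factors, had 0.10, 0.09 and 0.14. Rpl35, beside the exit tunnel, was at -0.11 (SE 0.14), and DsRed replicate 3 was its highest library, with 24.6 CPM.

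**Figure D4:**
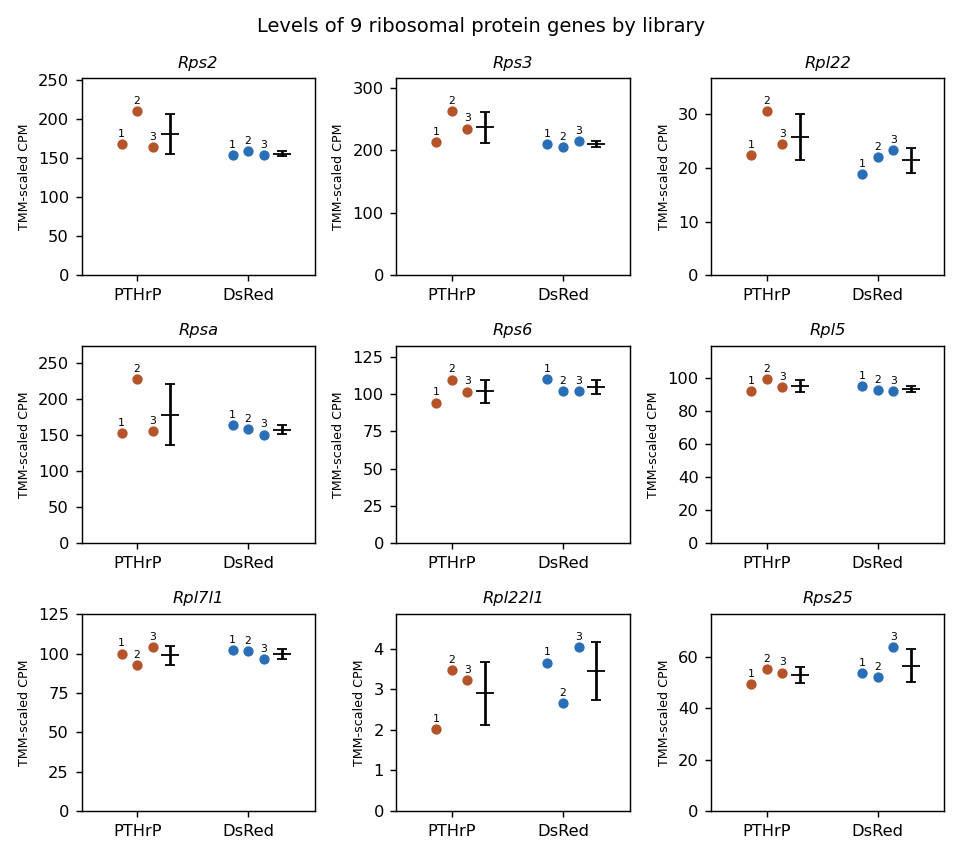
TMM-scaled CPM of 9 ribosomal protein genes in each library (points, numbered by replicate) with mean ± SD of the 3 libraries of a group. Rps2 has groups that do not overlap, PTHrP replicate 2 is the highest library in Rps2, Rps3, Rpl22, Rpsa and Rpl5, and in Rpl22l1 and Rps25 the highest library is DsRed replicate 3.

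Paralogs, related genes of which some can replace a ribosomal protein in some tissues, ranged widely in level. Rpl22l1, which in mice is held down by Rpl22, had 2.02, 3.47 and 3.21 CPM in PTHrP and 3.66, 2.65 and 4.04 CPM in DsRed. Its groups overlapped, and the log2 fold change of -0.25 (SE 0.23, edgeR adjusted p = 0.807) was the lowest of the 80. Per 100 counts of Rpl22 it had 9.04, 11.4 and 13.1 counts in PTHrP and 19.3, 12.1 and 17.3 in DsRed. Here PTHrP replicate 3 lay above DsRed replicate 2. Rps27l, a p53 target in human cells, had 199, 163 and 207 counts per 100 of Rps27 in PTHrP and 230.4, 204 and 193 in DsRed, with a log2 fold change of -0.02 of its own. Rpl7l1, a relative of Rpl7, did not follow the other genes: it had 99.995, 92.5 and 104 CPM in PTHrP and 102, 101 and 96.3 CPM in DsRed, so that PTHrP replicate 2 was its lowest library. Rpl7l1 had 85.3, 64.4 and 84.9 counts per 100 of Rpl7 in PTHrP and 84.2, 84.5 and 80.5 in DsRed.

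The 3 genes with too few counts for a test were also paralogs. Rpl3l, which replaces Rpl3 in heart and skeletal muscle, had 6, 2 and 3 counts in PTHrP and 14, 1 and 3 in DsRed. The testis paralog Rpl39l had 0, 4 and 1 counts in PTHrP and 0 in each DsRed library, and the testis paralog Rpl10l 0 in each PTHrP library and 8, 0 and 0 in DsRed. Rpl39 and Rps4x, parents of such copies, had log2 fold changes of 0.05 and 0.07. Rps4l is annotated as a pseudogene and is not among the 83.

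Ribosomal protein genes were abundant but far from equal in these counts. Per kilobase of merged exons their median level was 32.0 CPM, at the 88.5 percentile of 15323 protein-coding genes tested, and the median over all genes tested was 1.57 CPM per kilobase. The lower and upper quartiles were 16.3 and 58.8 CPM per kilobase, a ratio of 3.61, and the ratio was 2.43 when the length of the principal transcript was used instead. By merged exons Rplp0, the base of the stalk, was highest with 218, 267 and 229 CPM per kilobase in PTHrP and 229, 223 and 213 in DsRed. Rpl4, whose protein lines the exit tunnel, followed with 166, 174 and 169 CPM per kilobase in PTHrP and 169.8, 169 and 161 in DsRed, a spread that does not reach that of Rplp0. Rps3a1 and Rps15, 2 small-subunit genes, came next with 133 and 123 CPM per kilobase over the 6 libraries, and their ranges over libraries overlapped. The order of the highest genes differs when the length of the principal transcript is used.

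The lowest 4 genes were far below the median of 32.0 CPM per kilobase, and their counts are uncertain. Rpl24, which forms a bridge between the subunits, had 0.113, 0.354 and 0.326 CPM per kilobase in PTHrP and 0.202, 0.0782 and 0.244 in DsRed, from a mean of only 20.2 counts per library. Its log2 fold change of 0.59 was the highest of the 80 and had an SE of 0.66. Rps10 had 0.457, 0.422 and 0.445 CPM per kilobase in PTHrP and 0.541, 0.380 and 0.355 in DsRed. Rpl23a, at the rim of the exit tunnel where the signal recognition particle docks, had 1.99, 2.28 and 1.95 CPM per kilobase in PTHrP and 1.39, 2.06 and 2.08 in DsRed. In each of these 3 the groups overlapped. The annotation (GENCODE M21) puts other genes over their exons: Gm28037 covers 47.0% of the exon bases of Rpl24 on the same strand, RPS10-NUDT3 covers 20.6% of those of Rps10 on the same strand, and Tlcd1 covers 59.7% of those of Rpl23a on the opposite strand. Gm28037 and RPS10-NUDT3 were listed with 0 counts in every library, and Tlcd1 had a mean of 3027 counts. Overlaps were not limited to these genes: 38 of the 83 had one, 15 of them with a protein-coding gene. Wdr38 covers 66.2% of the exon bases of Rpl35 on the opposite strand, and Rpl35 had a mean of 1736.5 counts. Gm45713 covers 29.4% of those of Rpl13a on the same strand, and Rpl13a had a mean of 823 counts. The part of overlaps in the low counts was not tested. Between Rps10 and Rpl23a in mean level stood Rpl22l1, with 1.597 CPM per kilobase.

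**Figure D5:**
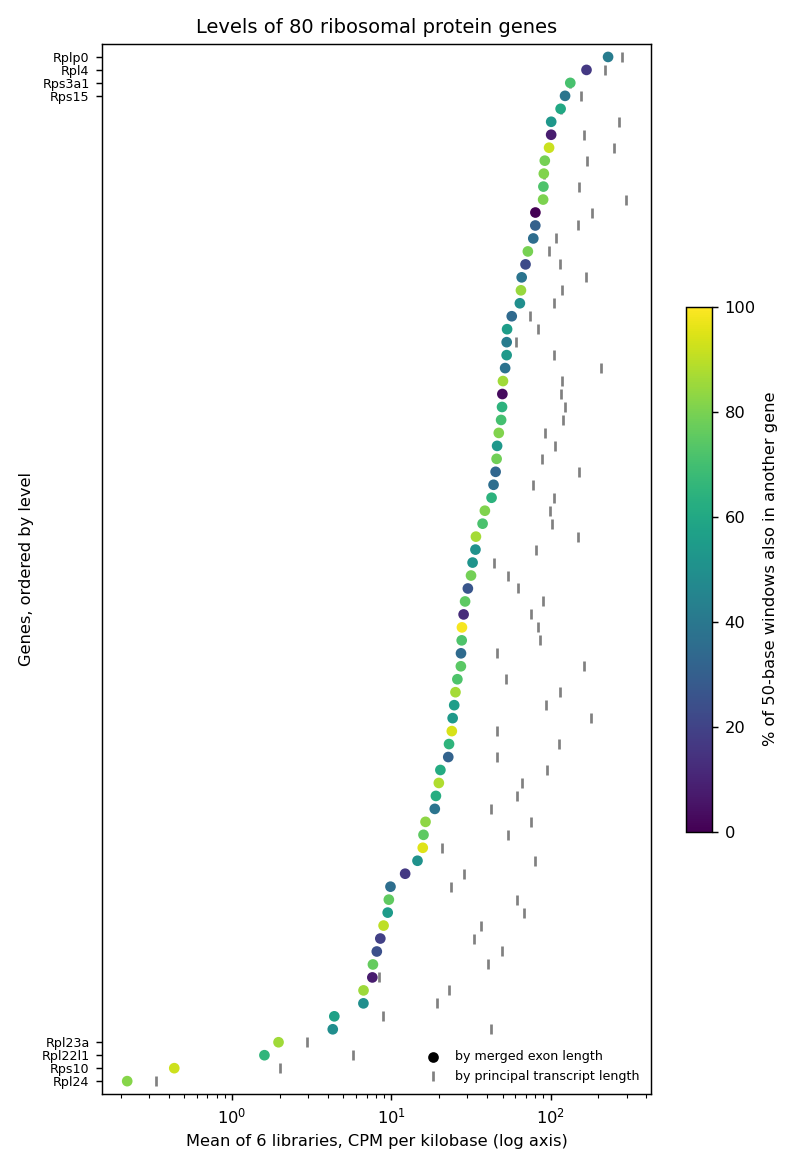
Mean level of the 80 tested ribosomal protein genes over the 6 libraries in CPM per kilobase (log axis), by merged exon length (points) and by the length of the principal transcript (ticks), with colour for the percent of 50-base windows of the transcripts that also occur in another gene. The names mark the 4 highest and the 4 lowest genes by merged exon length. Rplp0 is highest at 229.7 and Rpl24 lowest at 0.220 CPM per kilobase of merged exons.

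Most ribosomal protein genes share sequence with processed pseudogenes, and how the counting treated multi-mapping reads is not known from the sources used here. A median of 60.6% of the 50-base windows of a gene also occurred, on either strand, in transcripts of another gene. More than 50% did for 52 of the 80. The other genes were of any kind and included some at the same locus, such as RPS10-NUDT3 for Rps10 and Wdr38 for Rpl35. 1 of the 80 shared none. The share had little relation to the level per kilobase of transcript (Spearman's rho -0.10 over 80 genes, which share their libraries). The table held 647 pseudogene entries of cytosolic ribosomal protein genes, found by name or by shared sequence, and together they had 6.15, 6.29 and 6.36 counts per 100 ribosomal protein counts in the PTHrP libraries and 5.86, 5.95 and 7.09 in the DsRed libraries. The groups overlapped, with DsRed replicate 3 highest. The most counts were in Gm8730, a copy of Rplp0, with a mean of 996 counts, and in Gm5835, a copy of Rpl4, with 855. Pseudogene entries had more counts than the gene itself in 3 cases, a mean of 344 against 20.2 counts for Rpl24, of 356 against 88.7 for Rps10 and of 462 against 147 for Rpl23a. Of the 337 entries tested 0 passed, 215 had positive fold changes and the median was 0.10, which was -0.03 without PTHrP replicate 2.

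Ribosomal proteins that the naming rule leaves out were also examined. Of 5 such genes none passed (edgeR adjusted p of at least 0.598). Rack1, a signalling scaffold on the small subunit, had 128, 158 and 133 CPM in PTHrP and 124, 126 and 127 CPM in DsRed, groups that did not overlap, with a log2 fold change of 0.15 that was 0.06 without PTHrP replicate 2. Fau, made as a fusion with a ubiquitin-like sequence, had a log2 fold change of 0.15, and the gene copy Rpl36al one of -0.27. Rps27rt, whose coding sequence is nearly that of Rps27, had a log2 fold change of -0.57 with an SE of 0.38. It had 0.430, 0.506 and 0.273 CPM in PTHrP, all below the 0.706, 0.548 and 0.536 CPM in DsRed. With PTHrP replicate 2 left out the log2 fold change was -0.76. Rps27rt had a mean of only 44.0 counts per library and shares sequence with Rps27. Its counts can therefore depend on the treatment of multi-mapping reads, which is not known.

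The machinery that makes ribosomes did not pass either. Of 68 ribosome biogenesis factors 0 passed and 28 had positive fold changes, with a median of -0.03, and 6 (8.82%) had an unadjusted p under 0.05, all lower in PTHrP, where 3.98% of all genes were. The groups of 12 factors (17.6%) did not overlap with PTHrP lower, and those of 7.88% of all genes. Without PTHrP replicate 2 again 0 of the 68 passed, and the median was -0.04 with 25 above 0. At an unadjusted p under 0.05, 10 were then lower and 1 higher, where 6.21% of all genes were lower and 6.77% higher. Mdn1, an ATPase that matures the large subunit, had 5.81, 4.02 and 5.94 CPM in PTHrP, against 8.45, 6.71 and 7.75 CPM in DsRed (log2 fold change -0.54, SE 0.17, edgeR adjusted p = 0.374). Nop58, of the box C/D snoRNPs that methylate ribosomal RNA, had -0.23, and Pno1, which acts in small-subunit maturation, -0.19. Without PTHrP replicate 2 the log2 fold changes of Mdn1, Nop58 and Pno1 were -0.38, -0.15 and -0.16. These 3 are among the 12. Of 21 tested RNA polymerase I and rDNA factors 0 passed, and the median was 0.03 with 13 above 0, or -0.01 with 8 above 0 without PTHrP replicate 2. Taf1d, of the promoter selectivity factor, had a log2 fold change of -0.35, Polr2e, a subunit shared by the RNA polymerases, 0.18 and Rrn3, the initiation factor, 0.13 (0.07 without that library). PTHrP replicate 2 was the highest library for 16 of the 68 biogenesis factors (23.5%), a share near that of all genes (23.4%). It was the highest for 10 of the 21 RNA polymerase I and rDNA factors (47.6%).

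Translation factors with TOP mRNAs had PTHrP replicate 2 as the highest library in 16 of 22 (72.7%, against 23.4% of all genes). In the shortest bin of other protein-coding genes that library was highest for 32.6%. None of the 22 passed, 15 were above 0 and the median log2 fold change was 0.06, or 0.01 without that library. Eef2, the translocation factor of elongation, had 677, 778 and 671 CPM in PTHrP and 601, 624 and 577 CPM in DsRed, groups that did not overlap (log2 fold change 0.24, SE 0.07, edgeR adjusted p = 0.340). Eif3f and Eif3a, subunits of initiation factor 3, had 0.21 and -0.11. The 13 tested snoRNA host transcripts with TOP starts had a median of 0.10, with 7 above 0 and 0 passing, and a median of 0.04 without PTHrP replicate 2. That library was the highest for only 4 of the 13 (30.8%). The values of Snhg16, Snhg5 and Snhg20 were 0.36, 0.15 and 0.14, and 0.49, 0.09 and 0.04 without it.

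The genes upstream of these mRNAs did not pass with all 6 libraries. Of 32 genes of mTORC1 and TOP mRNA control 0 passed, with 17 above 0 and a median of 0.01. Lamtor1, which anchors mTORC1 signalling at the lysosome, had 98.4, 105 and 103 CPM in PTHrP and 83.4, 81.8 and 83.2 CPM in DsRed, well apart, with a log2 fold change of 0.30 (SE 0.06, edgeR adjusted p = 0.155). Akt1s1, an mTORC1 inhibitor also called PRAS40, had 0.18. Without PTHrP replicate 2, where 0.954% of all genes passed, these 2 genes did, Lamtor1 at 0.28 (edgeR adjusted p = 0.0194) and Akt1s1 at 0.24 (edgeR adjusted p = 0.0272). Larp4, which binds poly(A) tails and stabilises mRNAs, had -0.18. In the list of 11 tested genes of the MDM2 and p53 response to free ribosomal proteins 0 passed and the median was -0.01, with 5 above 0, or 0.07 with 6 above 0 without PTHrP replicate 2. Its p53 target Cdkn1a, the cell cycle inhibitor p21, had 123, 154 and 119.6 CPM in PTHrP and 159, 161 and 141 CPM in DsRed. That is a log2 fold change of -0.21 (edgeR adjusted p = 0.565), which without PTHrP replicate 2 was -0.34 and passed (edgeR adjusted p = 0.0141). Ccng1 and Bbc3, also p53 targets, had -0.16 and 0.12.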

How the data were processed

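RNA was sequenced from 3 PTHrP and 3 DsRed libraries of MIN6 cells. The authors deposited 1 table of raw counts per gene. Per the submitters' processing notes, bcl2fastq, STAR and featureCounts 2.0.3 (of Subread) were used with GRCm38. The sources used here give neither the annotation nor the strand setting nor the treatment of multi-mapping reads. Of 55774 entries, 287 repeated an identifier with the same counts and were removed, and 0 columns of per-sample values were left unmapped. The PTHrP libraries summed to 86806601, 84427033 and 94613684 counts and the DsRed libraries to 86686554, 88595892 and 91010177.

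Counts were filtered with filterByExpr and scaled with TMM factors. The two-sided test was edgeR 4.0.16 (R 4.3.3), quasi-likelihood with robust dispersions, on group alone, with Benjamini-Hochberg adjustment over 21141 genes and a limit of 0.05. The biological coefficient of variation came to 17.7%. A positive log2 fold change means higher in PTHrP. Its SE was taken as the absolute fold change over the root of F, and intervals reach 1.96 SE to each side. Deviations of log2 CPM carry a prior count of 2. Levels per kilobase divide TMM-scaled CPM by merged exon length from GENCODE M21 or, as an alternative added after the data were seen, by the principal transcript. Pseudogene entries were found by name, description or at least 10% of shared 50-base windows. The scripts were tested on simulated data.

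The genes and lists were chosen with earlier results of these data known. The named genes were the 6 with the smallest p in each direction, the 4 highest and 4 lowest levels per length, fixed genes with known roles and paralogs, 3 members of each other list by p and the 3 pseudogene entries with the most counts; some genes under this rule are not reported here. Rps18, Rpl28, Rps24, Rps27rt and the genes that overlap others were named after their values were seen. The alternatives were other scaling (RLE, upper-quartile, library sizes alone, TMM without ribosomal protein genes), other filters (none, or a floor of 1 CPM in 3 libraries), limma-voom 3.58.1 and DESeq2 1.42.0 as tools, the replicate number as a block, exon length or GC trends removed (lowess span 0.3), counts summed with pseudogene entries named after the gene, and each library left out. Same-numbered libraries of the groups deviated with correlations of 0.0235, -0.106 and 0.0246, so the numbers were not read as pairs.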

Additional observations from a re-analysis of the deposited data

How the results depend on the processing

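The number of ribosomal protein genes that passed was 0 under each alternative. Their median log2 fold change was 0.08 with all libraries and 0.04 to 0.09 under the 12 alternatives of scaling, filter, tool, block, trend or summed pseudogene counts. It ranged from -0.043 to 0.17 when each library was left out in turn, from -0.020 to 0.17 for the large and from -0.066 to 0.18 for the small subunit, and it was below 0 only without PTHrP replicate 2. The difference in the percent of counts taken by these genes was 0.0416, with a range of -0.00670 to 0.0774, lowest again without PTHrP replicate 2. Over all genes 9 passed, 14 with library sizes alone, 220 without a filter on low counts, 136 with DESeq2, 7 with the replicate block and 2 to 213 with a library left out, the highest without PTHrP replicate 2; the cause was not tested. With the block the median of the ribosomal protein genes was 0.08 and 0 passed. PTHrP replicate 1 correlated best with DsRed replicate 2, so not every library followed its number. Without a filter 1 biogenesis factor (Mdn1, -0.53), 1 TOP translation factor (Eef2, 0.24) and 1 mTORC1 gene (Lamtor1, 0.31) passed, and with DESeq2 1 mTORC1 gene did (Lamtor1, 0.30). With a library left out, 0 to 2 mTORC1 genes and 0 to 1 gene of the MDM2 and p53 list passed. For the 56 named genes, 990 of 1007 alternative values stayed within their error and on their side of the threshold, 10 moved further and 7 now passed. Leaving out PTHrP replicate 2 alone gave 8 of the 10 and 3 of the 7, and 45 of the 56 genes stayed the same there. By principal transcript the median level was 89.1 in place of 32.0 CPM per kilobase. Counting error limits Rpl24, Rps10, Rpl23a and Rpl22l1 most, and counts of copies depend on a multi-mapping rule that is not known.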
